A study of Mus musculus with 2 samples.

Results

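Wnt receptors and Wnt target genes of liver sinusoidal endothelial cells (LSECs) were taken by gene symbol from the annotation of the data. They comprise the receptors Fzd4, Fzd6, Fzd8, Lrp5 and Lrp6, the transcription factors Tcf7l2 and Lef1, and the target and feedback genes Axin2, Nkd1 and Znrf3, which are 10 of 32285 genes. Each symbol matched 1 gene. The comparisons ask how strongly LSECs express these genes with and without Maf, and whether LSECs in which the ligand gene Wnt2 was detected differ from the other LSECs of the same library.

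Hepatic endothelial cells were enriched with magnetic beads against CD146 and profiled by 3′ scRNA-seq, in which each captured mRNA molecule is counted once through its unique molecular identifier (UMI). There is 1 library of control mice (labelled WT) and 1 of Maf LSEC-KO mice (labelled KO), each from liver tissue of 3 mice that was pooled. Maf LSEC-KO mice were Clec4g-iCre tg/wt with both Maf alleles floxed, so that the promoter of the LSEC gene Clec4g drives Cre, and controls were littermates without Cre that carried 1 or 2 floxed Maf alleles. Age is not given for these libraries in the sources used here. With 1 library per condition no difference between the conditions was tested, and the 95% intervals given cover counting error only, not the spread between mice.

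In canonical Wnt signalling a Frizzled receptor and its co-receptor Lrp5 or Lrp6 bind a Wnt ligand, β-catenin is stabilised and TCF/LEF factors switch on target genes. Several targets, among them Axin2, Nkd1 and Znrf3, restrain the pathway in turn and are read as a measure of its activity. In the liver, Wnt2, Wnt9b and the R-spondin Rspo3 from endothelial cells around the central vein maintain the pericentral programme of hepatocytes, and endothelial cells carry Wnt receptors themselves.

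LSECs were cells of endothelial-like clusters without a UMI of the large vessel gene Vwf, of which 4101 came from the control library (median 8395 UMIs) and 3251, called knockout LSECs here, from the Maf LSEC-KO library (median 13871 UMIs). The libraries had 4 LSEC barcodes in common. Of 10 LSEC marker genes, 10 were found in at least 50% of control LSECs and 7 in at least 50% of knockout LSECs. Levels are counts per 1000000 UMIs (CPM), taken from the sum of all LSECs in a library without mitochondrial and ribosomal protein genes. Maf had 3472 CPM in control and 125 CPM in knockout LSECs (log2 ratio −4.80, −4.84 to −4.76), and a Maf UMI was found in 21.4% of knockout LSECs and 17.2% of the B cell-like and T/NK cell-like cells of that library. After thinning to equal depth these shares were 10.4% and 12.8%. T cells also express Maf, so these cells are no blank for it. A single Maf UMI is therefore not read as retained Maf, and whether it is background was not tested. Where the counted 3′ tags lie relative to the deleted part of Maf is not given in the sources used here. In these LSECs, which leave out cells with a Vwf UMI, the log2 ratio of knockout to control was −3.01 for Wnt2, −2.12 for Wnt9b and −2.81 for Rspo3. At least 2 UMIs of 5 proliferation genes were found in 3.19% of control and 29.0% of knockout LSECs.

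The receptor genes did not differ in parallel. Lrp6 was 2-fold lower in knockout LSECs and Lrp5 was lower to a smaller extent, whereas Fzd4, Fzd6 and Fzd8 lay close to the median of all genes. That median was a log2 ratio of 0.16, over 12932 genes with at least 50 UMIs. Levels of different genes are not scaled by length and are compared within a gene.

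Fzd4 (ENSMUSG00000049791, chr7:89404355-89413134 in mm10), an endothelial receptor for Wnt ligands and Norrin, had 7779 UMIs in control and 10888 in knockout LSECs. This gave 237 CPM (232 to 242) for control and 271 CPM (266 to 276) for knockout LSECs, a log2 ratio of 0.19 (0.15 to 0.24) that exceeds the median of all genes by 0.03. Because knockout LSECs were sequenced deeper, shares of cells were also taken after each LSEC was thinned at random to 2200 UMIs. Thinned, a Fzd4 UMI was present in 37.4% of control and 41.0% of knockout LSECs (66.5% and 77.6% before thinning). B cell-like and T/NK cell-like cells served as the background, and of these 7.81% (control library, median 6959.5 UMIs before thinning) and 4.26% (Maf LSEC-KO library, median 5857 UMIs) held one after thinning.

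Fzd6, a Frizzled known for planar cell polarity, had 1233 UMIs in control and 1843 in knockout LSECs. Its levels were 37.6 CPM (35.5 to 39.7) and 45.9 CPM (43.8 to 48.0), with a log2 ratio of 0.29 (0.18 to 0.39). Fzd8, which can bind Wnt ligands together with Lrp6, had 841 and 1144 UMIs. Its levels were 25.6 CPM (23.9 to 27.4) and 28.5 CPM (26.8 to 30.2), with a log2 ratio of 0.15 (0.02 to 0.28). Relative to the median of all genes the log2 ratio was 0.13 for Fzd6 and −0.01 for Fzd8. The ratio of Fzd8 turned to −0.04 when all genes entered the scaling, and to −0.01 with median of ratios and −0.01 with TMM, each with an interval that included 0. In the same order the ratio was 0.0036, 0.03 and 0.03 for Fzd4, with intervals that all included 0, and 0.10, 0.13 and 0.12 for Fzd6, with an interval that included 0 in the first.

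Lrp6 (ENSMUSG00000030201, chr6:134446476-134566965, minus strand), the co-receptor that recruits Axin once a ligand is bound, had 6892 UMIs in control and 4210 in knockout LSECs. The level was 209.9 CPM (205 to 215) for control against 105 CPM (102 to 108) for knockout LSECs, a log2 ratio of −1.003 (−1.06 to −0.95). After thinning, 34.4% of control LSECs (32.9 to 36.0) and 20.3% of knockout LSECs (18.9 to 21.8) held a Lrp6 UMI, and these intervals do not overlap. Thinned lymphocytes held one in 17.2% (control library) and 8.51% (Maf LSEC-KO library).

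Lrp5, the related co-receptor (ENSMUSG00000024913, chr19:3584828-3686564, minus strand), had 2902 UMIs in control and 2344 in knockout LSECs. The level was 88.4 CPM (85.2 to 91.7) against 58.3 CPM (56.0 to 60.7), a log2 ratio of −0.60 (−0.68 to −0.52). Thinned shares were 18.0% of control and 12.6% of knockout LSECs, and 9.38% of control lymphocytes and 0 of 94 lymphocytes of the Maf LSEC-KO library, where 0 allows up to 3.19%. Control lymphocytes had more of these receptor genes than those of the Maf LSEC-KO library, with Lrp5 at 53.8 against 9.92 CPM, Lrp6 at 168 against 45.7 CPM and Fzd4 at 119 against 35.7 CPM. The background thus differed between the libraries, and its part in the lower Lrp5 and Lrp6 of knockout LSECs was not tested. Both co-receptor genes were lower in knockout LSECs under 13 other settings as well, with log2 ratios from −0.79 to −0.55 for Lrp5 and from −1.19 to −0.92 for Lrp6.

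**Figure D1:**
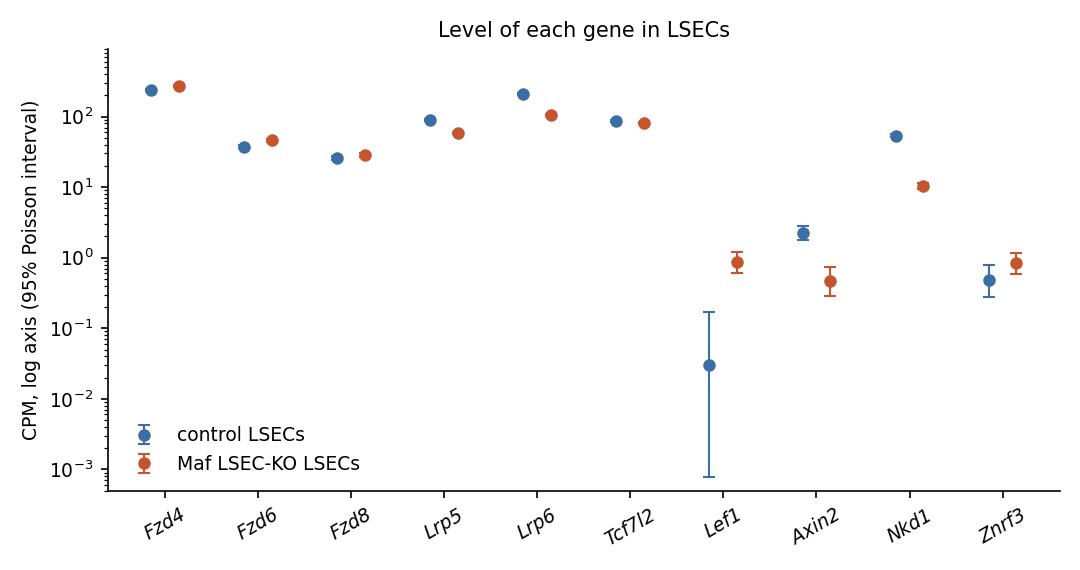
Level of the 10 genes in LSECs as CPM on a log axis, control in blue and Maf LSEC-KO in orange, with 95% Poisson intervals over the LSECs of 1 library each. Nkd1 lies at 53.8 CPM in control and 10.3 CPM in knockout LSECs, and Axin2, Lef1 and Znrf3 are the lowest genes, at most 2.25 CPM.

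Of the TCF/LEF factors, Tcf7l2 was well detected in LSECs and Lef1 almost not. Tcf7l2 (chr19:55741820-55933654) had 2815 UMIs in control and 3223 in knockout LSECs, 85.8 CPM (82.6 to 89.0) against 80.2 CPM (77.5 to 83.0), and a log2 ratio of −0.10 (−0.17 to −0.02). Thinned, 16.7% of control and 15.9% of knockout LSECs held a Tcf7l2 UMI, and 4.69% and 3.19% of lymphocytes did. Lef1 (ENSMUSG00000027985, chr3:131110471-131224356), which is itself a Wnt target and is abundant in T cells, had 1 UMI in 4101 control LSECs. In knockout LSECs it had 35 UMIs in 29 cells, 0.871 CPM (0.607 to 1.21). The log2 ratio of 4.84 (2.26 to 10.2) rests on that single control UMI. Of the 35 UMIs, 19 were in cluster 3 and 9 in cluster 7 of the merged LSECs. The 29 cells were deep (median 24643 UMIs), 3 of them also held a T/NK cell UMI (10.3%, against 3.01% of the other knockout LSECs) and 4 a UMI of the leukocyte gene Ptprc (13.8% against 4.13%). At least 2 stellate cell genes were detected in 3 of them (10.3% against 1.37%), and cluster 8, led by Dcn and Ccl21a, had the highest Lef1, 4.17 CPM (1.14 to 10.7) from 4 UMIs. The summed level of 7 T/NK cell genes was 1.22 CPM in control and 7.44 CPM in knockout LSECs with none of the 7 at 0, and its part in the Lef1 difference was not tested. The 7 include Gzma, which was also among the leading genes of cluster 3, so the sum may not reflect T/NK cell RNA alone. With doublets kept, Lef1 had 67 UMIs in knockout LSECs and still 1 in control LSECs.

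Nkd1 and Axin2 had the largest negative log2 ratios of the 10 genes. Nkd1 (ENSMUSG00000031661, chr8:88521354-88594884) encodes a feedback inhibitor that binds Dishevelled. It had 1767 UMIs in 1295 control LSECs and 413 UMIs in 321 knockout LSECs. The level was 53.8 CPM (51.3 to 56.4) against 10.3 CPM (9.31 to 11.3), a log2 ratio of −2.39 (−2.55 to −2.23). Thinned, 11.02% of control LSECs (10.03 to 12.1) and 2.34% of knockout LSECs (1.83 to 2.95) held a Nkd1 UMI. Of thinned lymphocytes, 6.25% held one in the control library (41.99 CPM before thinning), and 0 of 94 in the Maf LSEC-KO library, a count that allows up to 3.19%. Control lymphocytes had Maf, which T cells also express, at 1870 CPM, and Wnt2 at 149 CPM. In lymphocytes of the Maf LSEC-KO library these were 53.6 and 7.94 CPM. The part of the control background in the Nkd1 difference was not tested.

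Axin2 (ENSMUSG00000000142, chr11:108920349-108950783), a scaffold of the complex that degrades β-catenin and the most widely used Wnt readout, was sparse in both libraries. It had 74 UMIs in 63 control LSECs and 19 UMIs in 17 knockout LSECs. The level was 2.25 CPM (1.77 to 2.83) against 0.473 CPM (0.285 to 0.738), a log2 ratio of −2.25 (−3.06 to −1.51). Thinned, 0.540% of control LSECs (0.330 to 0.833) and 0.0990% of knockout LSECs (0.0204 to 0.289) held an Axin2 UMI. These shares are below the 1.56% and 1.06% of 64 and 94 thinned lymphocytes. That class includes T/NK cell-like cells, which had Axin2 at 13.7 CPM in the Maf LSEC-KO library, so it is no blank for Axin2. How much of the Axin2 in single LSECs is background was not tested. The difference is one of sums over all LSECs.

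Znrf3 (chr11:5276324-5444847, minus strand), a membrane ubiquitin ligase that removes Frizzled receptors, had 16 UMIs in 14 control LSECs and 34 UMIs in 30 knockout LSECs. The level was 0.487 CPM (0.279 to 0.792) against 0.846 CPM (0.586 to 1.18), and the log2 ratio of 0.80 had an interval from −0.10 to 1.75. A difference in Znrf3 was not detectable at this depth.

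Of the 9 members with at least 50 UMIs (Lef1 had 36), 3 were past 2-fold lower in knockout LSECs, namely Lrp6, Nkd1 and Axin2, and 0 were past 2-fold higher. Over all 12932 genes of that depth, 5.58% were past 2-fold lower and 15% past 2-fold higher, and 7.8% and 12.2% when all genes entered the scaling. The median log2 ratio of the 9 members was −0.10, next to 0.16 for all genes. Lrp6 sits at the 2-fold limit and fell inside it in 4 other settings, with −0.95 as a mean over cells of CPM, −0.9998 with Vwf cells kept, −0.92 without proliferating LSECs and −0.99 without LSECs that held markers of other cells. Without proliferating LSECs the log2 ratio was −2.26 for Nkd1 and −1.90 for Axin2.

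**Figure D2:**
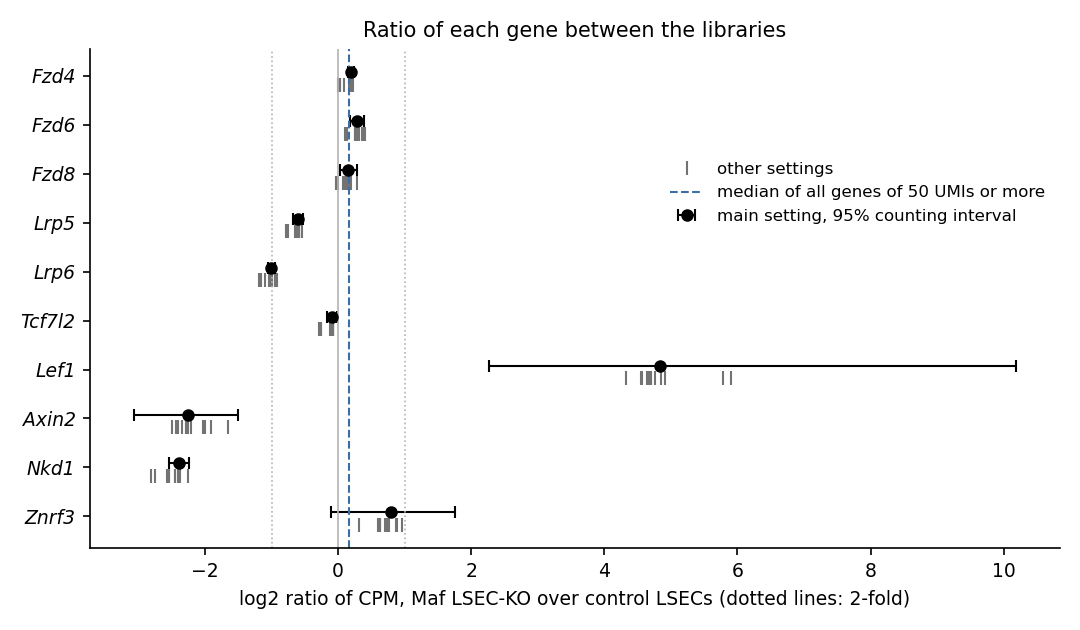
Log2 ratio of CPM, knockout over control LSECs, for the 10 genes, with black points and bars for the main value and its 95% counting interval and grey ticks for the other settings. The dashed line is the median of all genes (0.16), dotted lines mark 2-fold, and the ticks run from −2.80 to −2.26 for Nkd1, from −2.50 to −1.65 for Axin2 and from −0.04 to 0.28 for Fzd8.

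Stretches before the start sites of Axin2 and Nkd1, the target genes past 2-fold lower, and of Lef1 are printed to show where letters bound by TCF/LEF and Maf factors occur near them. RefSeq start sites of GRCm38.p6 were matched by symbol for 5 members, with 4 starts for Lef1, 2 for Tcf7l2 and 1 each for Fzd4, Nkd1 and Axin2. Fzd6, Fzd8, Lrp5, Lrp6 and Znrf3 had no entry. The TCF/LEF letters CTTTGA and CTTTGT and the Maf half-site TGCTGAC were searched on both strands in the 250 bases before each start. Fzd4, Nkd1 and Axin2 held 0 matches. One start of Tcf7l2 had CTTTGT 14 bases before it. One start of Lef1 had 3 TCF/LEF matches, 180, 146 and 120 bases before it, and a Maf half-site 244 bases before it. The other starts of Lef1 held 0 matches of both kinds. This Lef1 start, this Tcf7l2 start and the Nkd1 start lie inside the gene positions given above, not at their first base. Of 32851 stretches of the same length, 27.6% held a TCF/LEF match, 0.776% held at least 3, 3.81% held the Maf half-site and 1.2% held both. The parts shown are on the plus strand, with matches in capitals, those of the minus strand as their reverse complement.
Axin2, chr11:108920199-108920348: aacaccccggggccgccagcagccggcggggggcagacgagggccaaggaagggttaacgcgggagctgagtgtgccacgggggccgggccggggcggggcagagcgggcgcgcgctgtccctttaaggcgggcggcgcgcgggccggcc
Nkd1, chr8:88527483-88527632: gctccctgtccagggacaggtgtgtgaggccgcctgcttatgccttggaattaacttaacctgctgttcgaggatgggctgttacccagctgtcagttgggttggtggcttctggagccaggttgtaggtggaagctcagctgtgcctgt
Lef1, chr3:131156044-131156183: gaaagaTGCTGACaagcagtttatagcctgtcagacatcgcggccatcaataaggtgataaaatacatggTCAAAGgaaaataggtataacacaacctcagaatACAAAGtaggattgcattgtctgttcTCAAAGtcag
The parts of Axin2 and Nkd1 hold no capitals and that of Lef1 holds 4 runs. The 3′ libraries do not show which start site was used.

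The rest of the pathway gives the setting. Of 105 Wnt pathway genes, members included, 62 had at least 50 UMIs, of which 12 were past 2-fold higher and 10 past 2-fold lower in knockout LSECs (15% and 5.58% of all genes). Of the 53 among them that are not members, 12 were higher and 7 lower. The median log2 ratio of the 62 genes was −0.01. In the cytoplasm, where Dishevelled, Axin, Apc and β-catenin act, 13 of 13 genes had at least 50 UMIs, and Axin2 was the 1 past 2-fold.

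Of 24 ligand genes 5 were deep enough. Wnt2, Wnt9b and Rspo3 were past 2-fold lower, Rspo1 past 2-fold higher (0.670 CPM in control, 1.64 CPM in knockout LSECs) and Wnt4 within 2-fold. Porcn, which acylates Wnt ligands for secretion, had 5.33 CPM in control and 1.42 CPM in knockout LSECs. Of 22 receptor genes 14 were deep enough, with Lrp6 past 2-fold lower and Reck, a partner of the Wnt7 receptor complex, past 2-fold higher (0.670 and 5.77 CPM).

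Of 19 inhibitors 10 were deep enough, with 4 past 2-fold higher and 2 lower. Besides Nkd1, Dkk3 was lower (11.3 and 1.49 CPM), although it is not a typical blocker of Lrp receptors. Dkk2, which binds Lrp5 and Lrp6, had 3 UMIs in control and 163 in knockout LSECs (log2 ratio 5.47, 3.90 to 7.76). It was among the leading genes of an endothelial-like group of the Maf LSEC-KO library. That group had 375 cells before doublets were removed, with Pecam1 in 99.5% of them. Sost had 1.19 and 2.66 CPM, and Apcdd1, also a Wnt target, 0.731 and 2.79 CPM. Sfrp2, a secreted inhibitor made by mesenchymal cells too, had 0 UMIs in control and 56 in knockout LSECs, with a 95% interval of the log2 ratio from 3.58 upwards. The summed level of 7 stellate cell genes was 30.01 CPM in control and 136 CPM in knockout LSECs, none of the 7 was at 0, and its part in these values was not tested.

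Among 10 nuclear components of sufficient depth, Tcf7 (1.40 and 3.21 CPM) and the corepressor Tle3 (37.8 and 77.1 CPM) were past 2-fold higher. The 7 response genes of that depth did not share a direction. Axin2 and Nkd1 were past 2-fold lower, and Tcf7, Apcdd1, Ccnd1 (713 and 1449 CPM) and Myc (4.72 and 77.3 CPM) past 2-fold higher, of which Ccnd1 and Myc are also growth genes with many other inputs. Of 9 genes that depend on Wnt in brain endothelium 6 were deep enough. The tight junction gene Cldn5 (780 and 327 CPM) and the transcription factor gene Foxq1 (2.07 and 0.124 CPM) were past 2-fold lower, and the glucose transporter gene Slc2a1 (2.44 and 21.3 CPM) and the efflux pump gene Abcb1a (0.335 and 2.21 CPM) past 2-fold higher.

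To ask whether the Wnt response goes with Wnt2, the thinned LSECs of each library were divided by Wnt2 detection. A Wnt2 UMI was found in 39.3% of thinned control LSECs and 12.5% of thinned control lymphocytes (284 and 149 CPM before thinning), and in a single control LSEC free RNA and its own Wnt2 cannot be told apart. In the Maf LSEC-KO library the shares were 5.84% of thinned LSECs and 0 of 94 lymphocytes (35.3 and 7.94 CPM). Before thinning, lymphocytes held up to 12 Wnt2 UMIs in a cell in the control library and up to 4 in the Maf LSEC-KO library. The division is one by detection, and the libraries differ in its background. In the control library 1456 LSECs held a Wnt2 UMI and 2246 did not (median depth before thinning 9421 and 8657.5 UMIs). Fzd4, Lrp5 and Lrp6 were higher in the LSECs with Wnt2, by less than 1.5-fold, and the interval of Nkd1 included 0 here but not in the other settings. Fzd4 had 261 CPM (243 to 279) with Wnt2 against 207 CPM (195 to 220.3) without, a log2 ratio of 0.33 (0.20 to 0.46). Lrp5 had 107 CPM (96.4 to 119) against 85.2 CPM (77.3 to 93.7), a log2 ratio of 0.33 (0.13 to 0.54). Lrp6 had 225 CPM (209 to 242) against 194 CPM (182 to 207), a log2 ratio of 0.22 (0.07 to 0.36). For these 3 genes the interval of the ratio lay above 0, and for the other 7 members it included 0. The share of all genes with such an interval was not computed, and the interval narrows as UMIs rise. This count is therefore not read as a result about the members. Of the 7 members with at least 50 thinned UMIs 0 were past 1.5-fold, where 2.11% of 9437 genes were past 1.5-fold higher and 2.38% lower.

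Nkd1 had 58.4 CPM (50.3 to 67.4) with Wnt2 against 50.4 CPM (44.3 to 57.1) without, a log2 ratio of 0.21 (−0.07 to 0.49). Its ratio was 0.39 (0.01 to 0.75) when at least 2 Wnt2 UMIs were asked for, 0.58 (0.35 to 0.81) with thinning to 5000 UMIs and 0.43 (0.27 to 0.59) without thinning, so that the interval lay above 0 in these 3 settings. Axin2 had 9 UMIs with Wnt2 and 11 without, a log2 ratio of 0.34 (−1.11 to 1.75), and in the same 3 settings its ratio lay between −0.29 and 0.13 with intervals that included 0. On all UMIs, Wnt2 was present in 68.3% of the 63 control LSECs with an Axin2 UMI (median 10602 UMIs) and in 61.02% of the others (median 8369.5 UMIs). Tcf7l2 had 86.2 CPM against 88.2 CPM, a log2 ratio of −0.03 (−0.26 to 0.19).

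By the number of Wnt2 UMIs (0, 1, 2, and 3 or more, in 2246, 896, 339 and 221 control LSECs), Fzd4 had 207, 248, 263 and 306 CPM. Lrp5 had 85.2, 102, 106 and 132 CPM in the same order. For both genes the intervals of the first and the last class do not overlap (195 to 220.3 and 259 to 359.8 for Fzd4, 77.3 to 93.7 and 101 to 168 for Lrp5). Lrp6 had 194, 225, 221 and 232 CPM, with overlapping intervals of 182 to 207 and 192 to 279 for the first and the last class. Nkd1 had 50.4, 53.8, 57.7 and 78.2 CPM, with overlapping intervals of 44.3 to 57.1 and 55.3 to 107. LSECs with and without Wnt2 also differed in other respects, as Rspo3 had 146 and 25.1 CPM and 9.62% and 24.8% of them lay in merged cluster 5, whose part in the receptor values was not tested. Maf itself had 3433 CPM (3369 to 3498) and 3424 CPM (3373 to 3476).

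**Figure D3:**
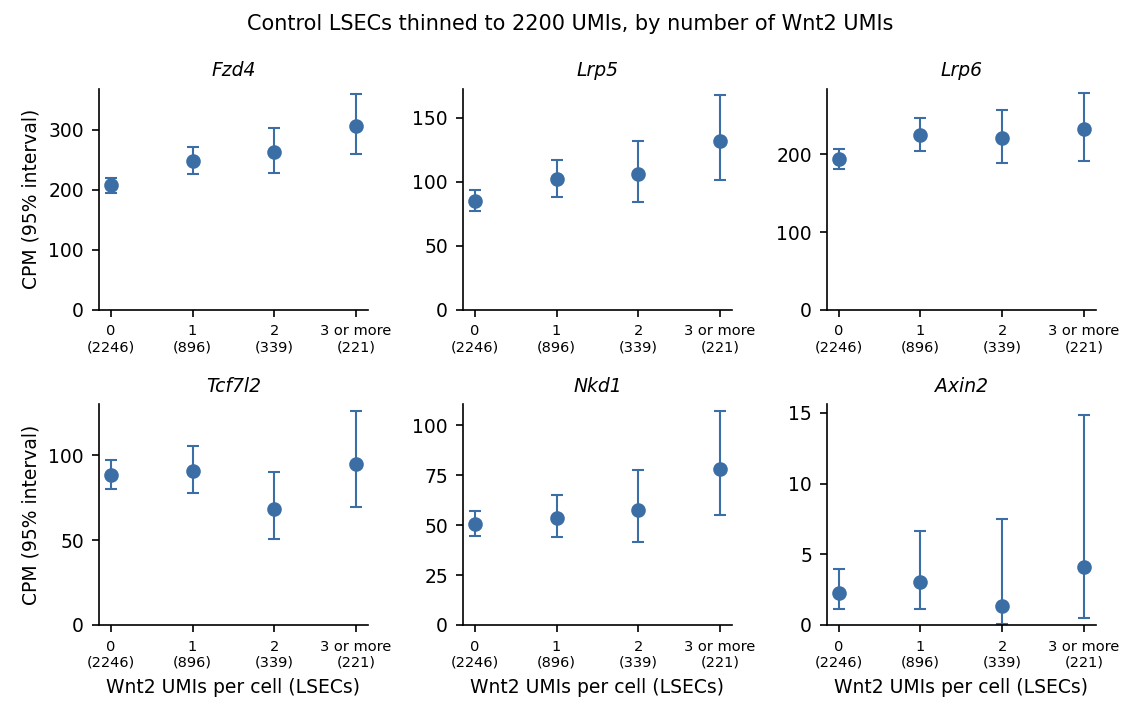
Level of 6 genes as CPM with 95% Poisson intervals (y axes, each from 0) in control LSECs thinned to 2200 UMIs, by the number of Wnt2 UMIs in the cell (x axis, number of LSECs in brackets). Fzd4 goes from 207 to 306 CPM and Lrp5 from 85.2 to 132 CPM between the first and the last class, and Axin2 lies between 1.34 and 4.11 CPM with wide intervals.

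In the Maf LSEC-KO library 177 thinned LSECs held a Wnt2 UMI and 2853 did not (median depth 13821 and 14850 UMIs). Lrp5 had 97.6 CPM (69.1 to 134) with Wnt2 against 59.3 CPM (53.4 to 65.6) without, a log2 ratio of 0.72 (0.20 to 1.20), the 1 member whose interval lay above 0, which it no longer did with at least 2 Wnt2 UMIs or with thinning to 5000 UMIs. Nkd1 had 9 UMIs and 65 UMIs, which is 23.1 CPM (10.6 to 43.9) against 10.4 CPM (7.99 to 13.2) and a log2 ratio of 1.16 (−0.03 to 2.17). Axin2 had 1 and 2 UMIs. Of 7 members with at least 50 thinned UMIs, Lrp5 and Nkd1 were past 1.5-fold higher and Fzd8 past 1.5-fold lower (15.4 and 29.0 CPM), where 8.02% of 9580 genes were past 1.5-fold higher and 14.6% lower. Fzd8 had 6 and 182 UMIs, a log2 ratio of −0.91 (−2.38 to 0.24). In the other settings its ratio was above 0, from 0.06 to 0.53, with intervals that included 0. At least 1 Maf UMI, counted before thinning, was found in 38.4% of these knockout LSECs with Wnt2 and in 20.9% of those without. With LSECs of 0 Maf UMIs alone, the log2 ratio by Wnt2 detection was 0.96 (0.34 to 1.53) for Lrp5, 0.37 (0.04 to 0.68) for Fzd4 and 0.55 (−1.79 to 2.21) for Nkd1.

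LSECs were also divided by zonal genes other than Wnt2. In the control library, 522 thinned LSECs with more UMIs of 5 pericentral genes (Wnt9b, Rspo3, Cdh13, Kit, Thbd) than of 7 periportal genes (Efnb2, Dll4, Ltbp4, Efnb1, Ntn4, Msr1, Adam23) were set against 2962 LSECs with the opposite. Lrp5 had 138 CPM (117 to 161) against 83.5 CPM (76.6 to 90.8), a log2 ratio of 0.72 (0.46 to 0.98). Of 7 members, Lrp5 alone was past 1.5-fold, where 4.75% of 9342 genes were past 1.5-fold higher and 5.97% lower. Fzd4 had 289 CPM (259 to 322) against 219 CPM (207 to 230.2), a log2 ratio of 0.40 (0.23 to 0.58), and the log2 ratio of Lrp6 was 0.21 (0.01 to 0.40). Nkd1 had 64.4 and 51.3 CPM with a log2 ratio of 0.33 (−0.05 to 0.70), and Axin2 had 2 UMIs against 18 UMIs. In the Maf LSEC-KO library (108 and 2600 LSECs) Nkd1 was past 1.5-fold higher, with 4 and 54 UMIs, and Fzd6 past 1.5-fold lower, where 11.5% of 9349 genes were higher and 16% lower, and no member had an interval that left out 0.

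Within the Maf LSEC-KO library, Nkd1 and Lrp6 were higher in LSECs with at least 2 Maf UMIs than in those with 0. This class made up 10.7% of knockout LSECs (up to 88 Maf UMIs in a cell). For comparison, 6 of 99 lymphocytes of that library, which include T cells, reached it too (6.06%, up to 4 in a cell). Maf had 1057 CPM in these LSECs and 53.6 CPM in all those lymphocytes. The lymphocytes were shallower (median 5857 against 13871 UMIs), and how much of the class is background was not tested. Nkd1 had 7.70 CPM (6.75 to 8.76) in 2556 LSECs with 0 Maf UMIs and 28.3 CPM (23.6 to 33.7) in 349 LSECs with at least 2, a log2 ratio of 1.88 (1.55 to 2.20). Lrp6 had 97.6 CPM (94.1 to 101) and 143 CPM (132 to 154), a log2 ratio of 0.55 (0.42 to 0.67). Both stayed below the control levels of 53.8 and 209.9 CPM. For Lrp5 the log2 ratio was 0.02 (−0.17 to 0.21), for Fzd4 0.05 (−0.04 to 0.14), for Fzd8 −0.01 (−0.29 to 0.27) and for Tcf7l2 0.12 (−0.04 to 0.28). The class with at least 2 Maf UMIs held 125 Nkd1 UMIs. Knockout LSECs of merged cluster 6, led by hemoglobin and hepatocyte genes, held 22 Nkd1 UMIs (Maf 2218 CPM). Those of cluster 8, led by Dcn and Ccl21a, held 51 (Maf 188 CPM). The part of these clusters in the Maf split was not tested. LSECs with at least 2 Maf UMIs were the shallower ones, with a median of 11584 against 13613.5 UMIs, and had Wnt2 at 99.2 against 27.1 CPM.

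Since Maf and Wnt2 detection went together, both were used at once, on all UMIs. In LSECs with 0 Maf UMIs, Nkd1 had 6.38 CPM (5.40 to 7.48) without Wnt2 and 12.4 CPM (9.86 to 15.3) with it (2153 and 403 LSECs, median 12676 and 18913 UMIs). In LSECs with at least 2 Maf UMIs it had 24.8 CPM (19.3 to 31.5) and 34.0 CPM (25.7 to 44.0) (239 and 110 LSECs, median 11116 and 13532.5 UMIs). The intervals with Maf do not overlap those without Maf. Lrp6 had 97.3 and 98.7 CPM without Maf and 136 and 154 CPM with Maf, and its intervals overlapped between the Wnt2 classes of each. Fzd4 showed the other pattern, with 258 and 303 CPM without Maf and 256 and 313 CPM with Maf, the higher value with Wnt2 each time and no overlap of the intervals. Thinned, the log2 ratio of Fzd4 by Wnt2 detection in all knockout LSECs was 0.26 (−0.02 to 0.53). It was −0.06 (−0.75 to 0.56) with at least 2 Wnt2 UMIs and 0.18 (0.03 to 0.32) with thinning to 5000 UMIs. The Fzd4 pattern thus depended on the setting.

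**Figure D4:**
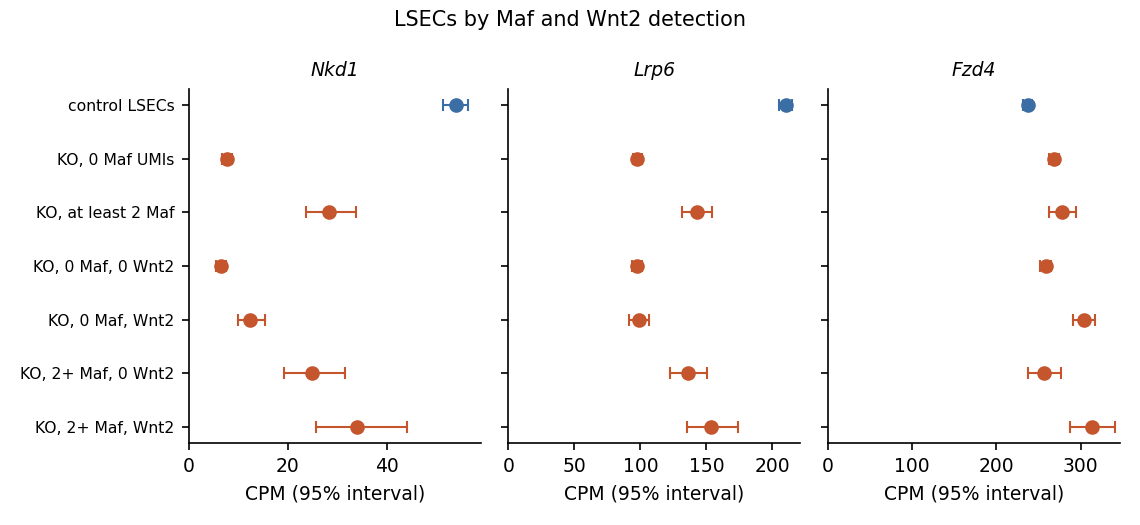
Level of Nkd1, Lrp6 and Fzd4 as CPM with 95% Poisson intervals (x axes) in control LSECs (blue) and in Maf LSEC-KO LSECs (orange, KO) by Maf and Wnt2 detection on all UMIs. Nkd1 goes from 6.38 CPM without either to 34.0 CPM with both, Lrp6 from 97.3 to 154 CPM, and Fzd4 is higher with Wnt2 in both Maf classes on all UMIs.

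The merged clusters of LSECs are given as a description, since Fzd4, Lrp6, Tcf7l2 and Nkd1 were among the genes used for clustering. Most knockout LSECs lay in clusters 2, 3 and 7 (1369, 1059 and 536 cells), where Nkd1 had 8.74, 5.59 and 8.02 CPM and Lrp6 93.9, 123 and 85.0 CPM. Control LSECs of clusters 1 and 4 (1605 and 939 cells) had Nkd1 at 51.5 and 56.6 CPM and Lrp6 at 205 and 237 CPM. The 57 and 46 knockout LSECs in these control clusters, with Maf at 2730 and 2291 CPM, had Nkd1 at 59.3 CPM (41.8 to 81.7) and 22.7 CPM (10.9 to 41.7), and Lrp6 at 232 and 209 CPM. Nkd1 reached 80.2 CPM in the 623 control LSECs of cluster 6, a shallow cluster (median 3338 UMIs) led by hemoglobin and hepatocyte genes, and 53.2 CPM in the 91 knockout LSECs of cluster 8, which is led by Dcn and Ccl21a, genes of stellate and lymphatic cells. The log2 ratio of Nkd1 between the libraries was −2.45 without clusters 5 and 6 and −2.54 without cluster 8.

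Over 22 cell groups of at least 50 cells, the Frizzled genes were higher in endothelial-like than in other groups of the Maf LSEC-KO library. Fzd4 ranged from 204 to 305 CPM in 9 endothelial-like groups and from 20.5 to 26.0 CPM in 4 other groups. Fzd6 (28.8 to 103 CPM against 0 to 7.41 CPM) and Fzd8 (16.5 to 48.6 CPM against 0 to 6.93 CPM) did not overlap between these classes either. In the control library the macrophage-like group had 64.0 CPM of Fzd4, against 133 to 296 CPM in 7 endothelial-like groups, and an unnamed group with stellate and hepatocyte genes had 179 CPM. That unnamed group also had Pecam1 in 78.7% of cells and 14 of 14 further endothelial genes in at least 50%. It was not counted as endothelial-like because Arg1 was found in 52.5% of its cells. Tcf7l2 was highest in macrophage-like cells, at 315 CPM (control) and 534 CPM (Maf LSEC-KO), above all endothelial-like groups (53.7 to 125 CPM and 63.6 to 122 CPM). Lef1 and Znrf3 peaked in the T/NK cell-like group of the Maf LSEC-KO library (60 cells), with 82.0 and 20.5 CPM.

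Among endothelial-like groups, the one led by Rspo3 and Bmp4, which also has Selp, Wnt9b and Vwf among its leading genes, had the highest level of several receptor genes. In the control library (502 cells) it had the highest Fzd4 (296 CPM), Lrp5 (121 CPM), Lrp6 (235 CPM) and Axin2 (5.52 CPM) of 7 groups. In the Maf LSEC-KO library (183 cells) it had the highest Fzd6 (103 CPM), Fzd8 (48.6 CPM) and Lrp5 (119.6 CPM) of 9 groups, and Nkd1 at 22.5 CPM, with Wnt2 at 465 CPM but Maf at 14.7 CPM. The groups with Nrg1, Atp13a3 and Jag1 among their leading genes had the lowest Nkd1 of the endothelial-like groups, 18.4 CPM (control) and 3.22 CPM (Maf LSEC-KO), at 12.9 and 1.72 CPM of Wnt2. The group led by Dnase1l3 and Maf in the Maf LSEC-KO library (211 cells, Maf 2319 CPM) had Nkd1 at 48.6 CPM and the highest Lrp6 of that library, 203 CPM.

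**Figure D5:**
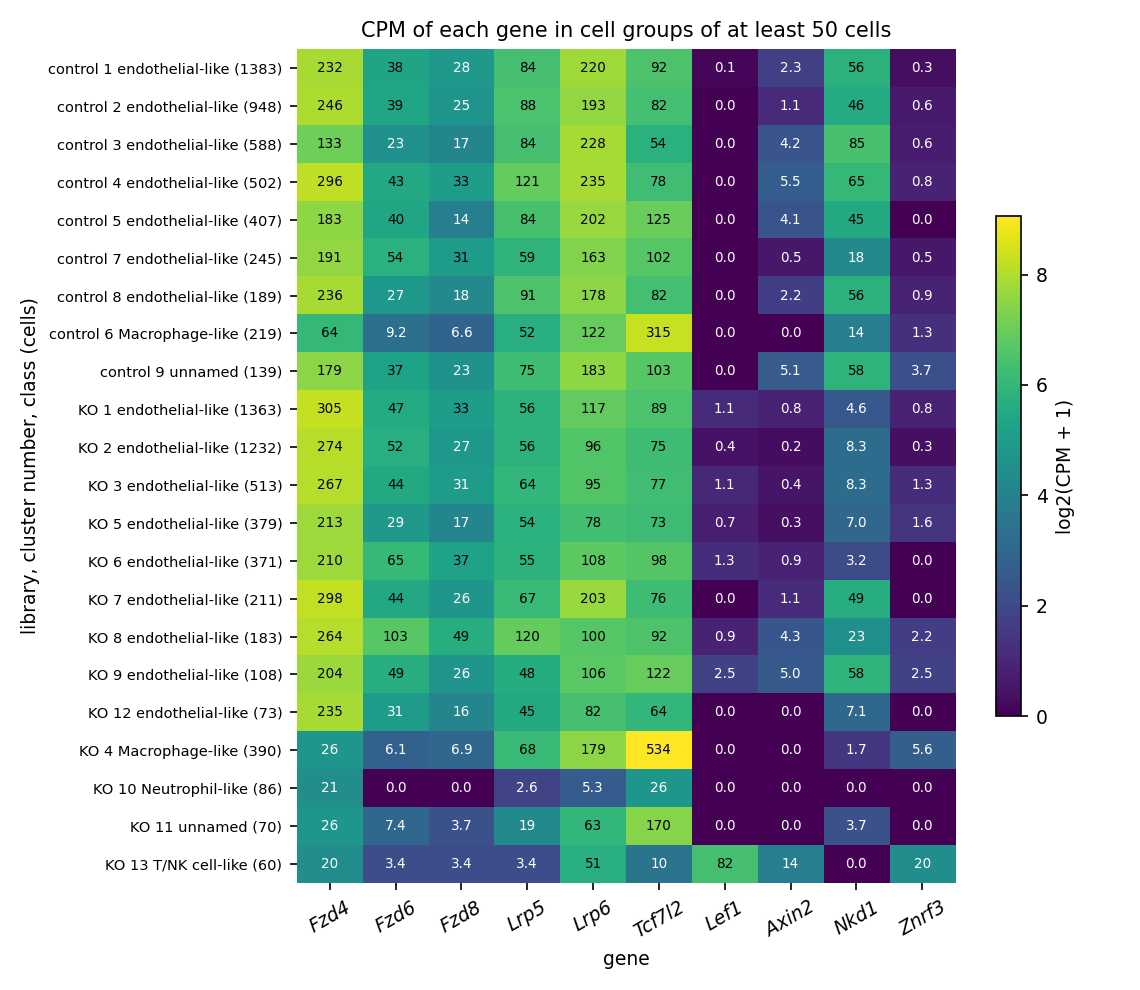
CPM of the 10 genes (columns) in the cell groups of at least 50 cells (rows, KO for Maf LSEC-KO), with colour for log2(CPM + 1) and the CPM printed. Tcf7l2 peaks in macrophage-like groups (315 and 534 CPM), Lef1 in the T/NK cell-like group (82.0 CPM), and Nkd1 spans 18.4 to 84.8 CPM in endothelial-like groups of the control and 3.22 to 58.2 CPM in those of the Maf LSEC-KO library.

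Endothelial-like cells with a Vwf UMI, kept apart from LSECs, comprised 161 control and 1182 knockout cells. Nkd1 had 34.2 CPM (26.0 to 44.1) and 8.10 CPM (6.82 to 9.55) in them, a log2 ratio of −2.08 (−2.53 to −1.61). Lrp6 had 157 CPM (139 to 177) and 101 CPM (96.5 to 106), a log2 ratio of −0.63 (−0.82 to −0.44), and Lrp5 a log2 ratio of −0.76 (−0.99 to −0.53). The Vwf cells of the libraries were unlike in other genes, with Rspo3 at 1887 against 391 CPM and Wnt2 at 367 against 70.2 CPM, and the part of a different mix of cells in these ratios was not tested. Axin2 had 9 and 25 UMIs, 5.21 CPM (2.38 to 9.90) and 1.44 CPM (0.929 to 2.12), and within the Maf LSEC-KO library its log2 ratio of Vwf cells to LSECs was 1.60 (0.68 to 2.54). With Vwf cells kept among the LSECs, the log2 ratio between the libraries was −1.65 for Axin2 and −2.46 for Nkd1.

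The genes most like the 3 members with most UMIs over the 22 cell groups were ranked by Pearson's r of log2(CPM + 5), a description over groups that come from the same 2 libraries. For Fzd4 they were the basement membrane genes Nid1 (r = 0.99) and Hspg2 (r = 0.98) and the protease gene Bace2 (r = 0.98). For Lrp6 they were 2610507B11Rik (r = 0.96), Nagk (r = 0.95) and Fyco1 (r = 0.95). For Tcf7l2 they were Vav2 (r = 0.95), Plxnb2 (r = 0.94) and Grn (r = 0.93).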

How the data were processed

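The authors deposited whole UMI counts for each gene in each barcode, without normalization, made with Cell Ranger 6.0.2 with mm10 (submitters' processing notes), for 5664 control barcodes (47681895 UMIs) and 7091 Maf LSEC-KO barcodes (89872764 UMIs). Whether introns or strand entered the counting is not given in the sources used here. Axin2, Lef1 and Fzd6 overlap a gene on the opposite strand and Tcf7l2 overlaps Ppnr, so their counts are uncertain to that extent.

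Cells needed 1500 UMIs and 750 genes. Scrublet (scanpy 1.11.5) marked 0 doublets by its automatic limit, so the 225 control and 308 Maf LSEC-KO cells of highest score, the expected number, were removed. Clusters of each library came from Seurat 5.3.0 (R 4.3.3, 16 and 20 principal components, resolution 0.3), and the merged LSECs with sctransform 0.4.2 (22 components). Endothelial-like clusters had Pecam1 and 7 of 14 further endothelial genes in 50% of cells. Clusters with Adgre1, Clec4f, Ptprc, Cd52, Acta1 or Arg1 in more than 50% of cells were left out. Thinning dropped 399 control and 221 knockout LSECs of low depth. Intervals are exact Poisson, conditional binomial or Clopper-Pearson (scipy 1.17.1). No test was run. The computations were tested on simulated data. TMM is from edgeR 4.0.16, and gene positions are of GENCODE M21. Named were the members, Maf, Wnt2, Wnt9b, Rspo3, pathway genes of at least 50 UMIs past 2-fold, and the 3 genes most like each of the 3 members with most UMIs. Wnt4 and the leading genes of cell groups were added after their values were seen. Members and lists were chosen with earlier results of these data known.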

Additional observations from a re-analysis of the deposited data

How the results depend on the processing

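For the comparison of the libraries, other settings were the scaling (UMIs of all genes, median of ratios, TMM), the mean over cells of CPM, doublets or Vwf cells kept, limits of 10% mitochondrial UMIs or 5000 UMIs per cell, and LSECs without proliferation genes or without markers of other cells. Leaving out merged clusters 5 and 6, leaving out cluster 8, and taking knockout LSECs of 0 Maf UMIs only were chosen after seeing the data. In these settings 2 or 3 members were past 2-fold lower. The number past 2-fold higher was 0 and became 1 (Lef1) with genes of at least 1 UMI and 1 (Lef1) with doublets kept, as Lef1 then had enough UMIs to enter the count. Of 130 log2 ratios of single members, 103 stayed within the counting interval and 27 did not. The 3 scalings moved each ratio by −0.19, −0.16 and −0.17. Over all 20703 genes with at least 1 UMI, 26.4% were past 2-fold higher and 11.9% lower.

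By Wnt2 detection in the control library, thinning to 5000 UMIs gave 1 member (Tcf7l2) with an interval below 0, against 0. In the Maf LSEC-KO library 1 member (Lrp5) had an interval above 0. This became 2 with at least 2 Wnt2 UMIs (Lrp6, Nkd1), 2 with thinning to 5000 UMIs (Fzd4, Nkd1), 2 with LSECs of 0 Maf UMIs (Fzd4, Lrp5) and 4 without thinning (Fzd4, Lrp5, Lrp6, Nkd1), and the cause was not tested. The share of all genes with an interval that leaves out 0 was not computed in any setting.

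No paired analysis was possible because each condition is 1 library, which also leaves no replicate to omit. Depth limits Lef1, Znrf3 and Axin2 most.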
